A study of Rattus norvegicus with 15 samples.

Results

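Oligodendrocyte and myelin genes were examined in the inferior colliculus (IC), the midbrain auditory nucleus where audiogenic seizures start, of the Wistar Audiogenic Rat (WAR) strain and of Wistar rats. The set was a list of 35 genes of the oligodendrocyte lineage, each read from the brightest of its probe sets over all 15 arrays, and 32 of them were measured among 14506 genes. *Olig2*, *Myrf* and *Gal3st1* had no probe set that carries their symbol alone. The measured genes were 5 members known from precursors or newly formed cells (*Pdgfra*, *Cspg4*, *Gpr17*, *Bcas1*, *Enpp6*) and the 27 others, here called mature members, most of them genes of the myelinating cell.

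The arrays were of sound-stimulated WAR rats (WAR S, n = 5), sound-stimulated Wistar rats (Wistar S, n = 2), naïve WAR rats (WAR N, n = 4) and naïve Wistar rats (Wistar N, n = 4), all male and 12 weeks old. WAR rats come from Wistar animals bred for seizures in response to sound, so strain stands for everything that this breeding separated. The stimulated animals heard an intense sound, which sets off seizures in WAR but not in Wistar rats, and the IC was taken an hour later, while the labels of the naïve arrays give no exposure. The labels call the arrays biological replicates, but no source says that each array holds 1 rat, and the texts of the study disagree on how many animals were stimulated.

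Oligodendrocytes wrap axons of the central nervous system in myelin, a stack of lipid-rich membrane that speeds conduction, which the auditory brainstem and midbrain need for precise timing. They arise from precursors that carry the PDGF receptor α and the NG2 proteoglycan, pass through a premyelinating stage marked by the receptor GPR17, and then switch on the genes of the myelin sheath under the transcription factors SOX10, OLIG1, OLIG2 and MYRF. The arrays measured whole tissue, so fewer cells of a type and less RNA per cell cannot be told apart in any value that follows.

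Short letter patterns tied to these factors were looked for in the RefSeq promoters (build GRCr8, 250 bases before to 50 after the start) of the measured members. The promoter table held 27 promoters of 25 of the 32 (*Mbp* and *Nfasc* have 2 each) and none of the other 7. The letters CTGGCAC or CTGGTAC, known from MYRF sites, stood on either strand in 7 of the 27 promoters (25.9%; *Cldn11*, *Cnp*, *Enpp6*, *Mag*, *Mal*, *Nfasc* and *Opalin*) and in 6.78% of all 33469 promoters. ACAAAG or ACAATG, letters bound by SOX proteins, stood in 8 of the 27 promoters (29.6%) and in 29.1% of all promoters. The E-box CAGCTG stood in 6 of the 27 promoters (22.2%) and in 15.1% of all. Matches overlapped in 1 place, the E-box and MYRF letters of *Enpp6*. A match of letters is a description and not a binding site. The 250 bases before the start of *Mag* (chr1:95291045-95291294, minus strand), *Cnp* (chr10:86011254-86011503, plus strand) and *Opalin* (chr1:249858191-249858440, minus strand) are shown because each holds MYRF and SOX letters, and that of *Plekhb1* (chr1:164425173-164425422, minus strand) because the strain difference of this gene changed sign between the naïve and stimulated arrays. The 4 were picked after the matches were known. Capitals mark the letters searched, on the strand shown or as their reverse complement.
Mag: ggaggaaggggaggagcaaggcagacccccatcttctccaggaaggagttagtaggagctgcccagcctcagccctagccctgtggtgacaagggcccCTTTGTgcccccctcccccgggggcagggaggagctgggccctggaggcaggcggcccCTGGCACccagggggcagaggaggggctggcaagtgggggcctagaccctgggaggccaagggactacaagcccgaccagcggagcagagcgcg
Cnp: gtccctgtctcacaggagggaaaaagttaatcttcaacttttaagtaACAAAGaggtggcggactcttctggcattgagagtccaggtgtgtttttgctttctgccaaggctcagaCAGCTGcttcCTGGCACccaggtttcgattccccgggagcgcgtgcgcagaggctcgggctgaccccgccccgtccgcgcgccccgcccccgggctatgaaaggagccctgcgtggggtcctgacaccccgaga
Opalin: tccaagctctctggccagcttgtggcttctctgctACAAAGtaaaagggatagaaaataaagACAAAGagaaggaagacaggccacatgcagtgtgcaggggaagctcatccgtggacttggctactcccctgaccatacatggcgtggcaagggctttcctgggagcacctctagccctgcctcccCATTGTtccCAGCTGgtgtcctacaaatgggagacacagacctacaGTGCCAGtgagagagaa
Plekhb1: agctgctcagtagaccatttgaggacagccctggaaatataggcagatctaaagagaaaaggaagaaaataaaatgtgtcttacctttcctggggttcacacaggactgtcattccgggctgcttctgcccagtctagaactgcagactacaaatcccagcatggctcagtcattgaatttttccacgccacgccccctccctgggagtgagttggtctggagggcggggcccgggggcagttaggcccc
*Mag* held the MYRF letters from position −94 to −88 and SOX letters, reversed, from −152 to −147, counted back from the start. *Cnp* held SOX, E-box and MYRF letters in that order, and *Opalin* held 3 SOX matches, an E-box and the reversed MYRF letters from −17 to −11. The promoter of *Plekhb1* held none of the letters searched, and no difference in level described below was tested against any match.

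Array medians of the log2 values lay between 7.21 and 7.27 for WAR S and between 7.21 and 7.22 for Wistar S. For naïve rats they lay between 7.08 and 7.14 (WAR N) and between 7.01 and 7.08 (Wistar N). Pairs of stimulated arrays shared 2675 to 3286 identical values, pairs of naïve arrays 2 to 13 and mixed pairs 0, a sign of 2 separate normalizations, so strains were compared only among stimulated or among naïve arrays. Ties of this kind touched 9 of the 32 members (28.1%), *Pdgfra*, *Cspg4* and *Gpr17* among them, and 58% of all genes. Their effect on the test was not examined. Replicate 1 of Wistar N stood apart from its group. Its values correlated at a mean r of 0.961 with the other Wistar N arrays and of 0.985 with the WAR N arrays, and in 25 of the 32 members it lay nearer to the WAR N mean, against 7 to 10 members for the other Wistar N arrays. Over the 60 genes that differed between the stimulated strains it lay nearer to Wistar N in 49, as the other Wistar N arrays did in 49 or 50. The spread of the naïve arrays, replicate 1 among them, entered the test that picked these 60 genes. The count of 49 is thus no independent check of that array, and no conclusion is drawn from it. Because replicate 1 stood apart, the naïve calls and counts are also given without that array.

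Between the stimulated strains no member passed the test (limma, adjusted p under 0.05 over all genes), against 0.414% of all genes (60 of 14506; 0.214% higher and 0.2% lower). Their log2 fold changes ran between −0.50 and 0.30 with a median of −0.04 (all genes, 0.01), and 2 members had an unadjusted p under 0.05, beside 6.85% of all genes. The test pooled the spread of all 4 groups. The naïve arrays, Wistar N replicate 1 among them, thus also entered the intervals and p-values of the stimulated comparison. Counts from the stimulated arrays alone are given further on. Between the naïve strains 7 of the 32 members (21.9%) passed, against 20.9% of all genes (11.6% higher and 9.38% lower), so the share of members was near that of the background. *Mog*, *Pllp* and *Plekhb1* were higher in WAR N and *Pdgfra*, *Gpr17*, *Olig1* and *Mag* were lower, and the median over the members was 0.05 (all genes, 0.02). The groups did not overlap in 7 of the 32 members between the stimulated strains (3 higher and 4 lower), beside 20.7% of all genes (12.4% higher and 8.22% lower), and in 4 between the naïve strains (1 higher and 3 lower), beside 13.4% (7.93% higher and 5.51% lower). *Pdgfra* and *Gpr17* were lower without overlap in both, as 3.9% of all genes were separated in the same direction in both. Without Wistar N replicate 1, 15 of the 32 (46.9%) passed between the naïve strains, 10 higher and 5 lower, beside 41.1% of all genes (22.6% higher and 18.5% lower).

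**Figure D1:**
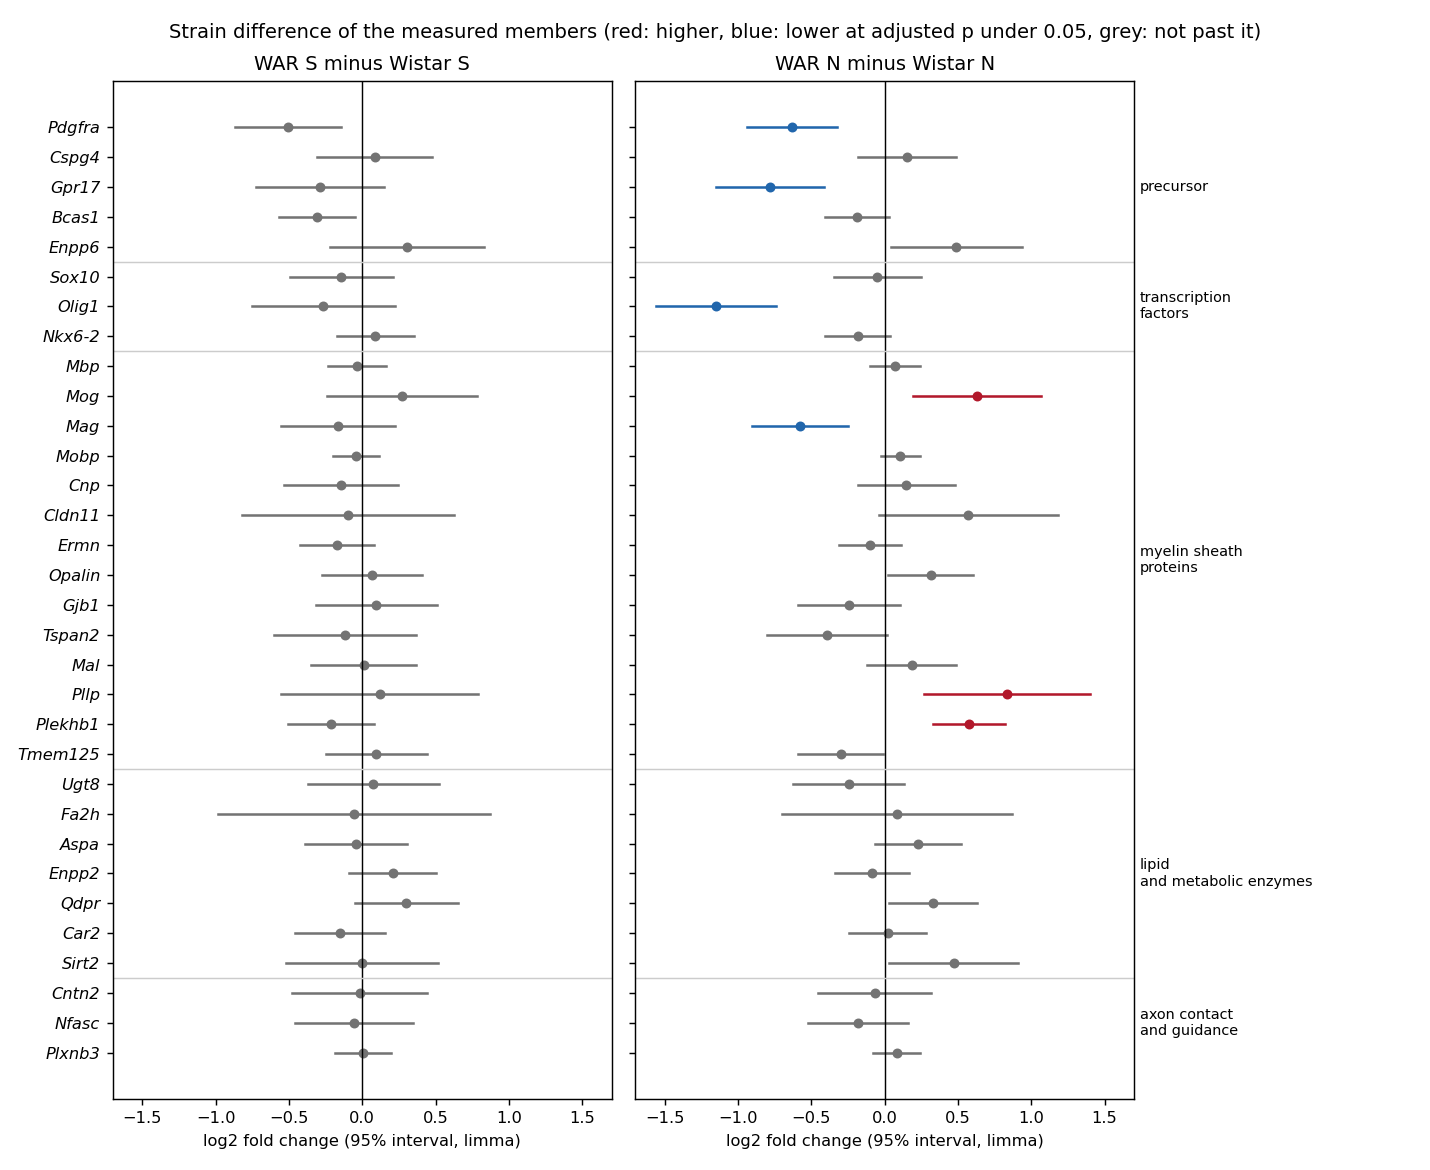
Log2 fold change (horizontal axis, WAR minus Wistar, limma, bars 95% intervals) of each of the 32 measured members (vertical axis, by role) in the stimulated and the naïve comparison. No point in the stimulated panel passed the test, and in the naïve panel *Mog*, *Pllp* and *Plekhb1* lay above 0 and *Pdgfra*, *Gpr17*, *Mag* and *Olig1* below it.

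Among the precursor members, *Pdgfra*, which encodes the receptor through which PDGF drives precursor division, was lower in WAR rats. Its log2 values (probe set 10776459) were 8.24, 8.08, 7.85 and 8.25 in WAR N, against 8.33, 8.57, 9.01 and 9.05 in Wistar N. No WAR N array reached the lowest Wistar N array, which was replicate 1. The log2 fold change was −0.63 (SE 0.14, limma adjusted p = 0.00754), and −0.77 (adjusted p = 0.000172) without that array. Among the stimulated arrays *Pdgfra* had 8.28, 8.35, 8.20, 8.40 and 8.40 in WAR S, against 8.93 and 8.72 in Wistar S. These groups did not overlap either, but the log2 fold change of −0.50 (95% interval −0.87 to −0.14) did not pass (limma adjusted p = 0.378), and the exact permutation p of 0.0476 is the smallest that 5 against 2 arrays can give.

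*Gpr17*, the receptor of the premyelinating stage, was also lower in WAR N. Its log2 values (probe set 10803602) were 7.60, 7.79, 7.54 and 8.07 in WAR N, against 8.95, 8.22, 8.55 and 8.41 in Wistar N. The groups did not overlap, and Wistar N replicate 1 was the highest array here. The log2 fold change was −0.78 (SE 0.17, limma adjusted p = 0.00653), and −0.64 (adjusted p = 0.00465) without that array. In the stimulated arrays it had 8.20, 8.07, 8.20, 8.20 and 7.60 in WAR S, against 8.21 and 8.48 in Wistar S. The lower Wistar S array was barely above 3 WAR S arrays, whose values were identical and so may not be separate readings. The log2 fold change was −0.29 (95% interval −0.72 to 0.15, limma adjusted p = 1).

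The other 3 precursor members did not pass in either comparison. *Cspg4*, which encodes the NG2 proteoglycan of precursors and pericytes, had log2 fold changes of 0.15 in naïve rats (SE 0.15, limma adjusted p = 0.523) and 0.08 in stimulated rats (SE 0.18). Its Wistar N arrays read 7.41 in replicate 1 and 6.88, 6.83 and 6.47 in the others, against 7.01, 6.82, 7.12 and 7.24 in WAR N, and without replicate 1 it was higher in WAR N (0.32, adjusted p = 0.0368). *Enpp6*, a choline phosphodiesterase of newly forming oligodendrocytes, had 9.10, 8.93, 8.28 and 8.68 in WAR N, against 8.82, 7.63, 8.21 and 8.36 in Wistar N. These groups overlapped, with a log2 fold change of 0.49 (SE 0.21, limma adjusted p = 0.108), which became 0.68 (adjusted p = 0.00769) without Wistar N replicate 1. In stimulated rats every *Enpp6* value of WAR S (8.76 to 9.01) was above both of Wistar S (8.55 and 8.64), with a log2 fold change of 0.30 (SE 0.25, adjusted p = 1).

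*Bcas1*, a marker of cells that are starting to myelinate, leaned lower in WAR rats without passing. It had 11.05, 11.10, 11.55 and 11.02 in WAR N, against 11.30, 11.48, 11.39 and 11.30 in Wistar N, a log2 fold change of −0.19 (SE 0.10, limma adjusted p = 0.209). Replicate 3 of WAR N was above every Wistar N array while the other WAR N arrays were below them all. Without WAR N replicate 3, *Bcas1* passed as lower (−0.31, adjusted p = 0.0116) and *Enpp6* as higher in WAR N (0.64, adjusted p = 0.0487). That array was singled out by its *Bcas1* value and was also the lowest WAR N array in *Enpp6*. Leaving it out therefore favoured both calls, and no conclusion is drawn from them. The stimulated groups did not overlap, with 10.77 to 10.92 in WAR S and 11.10 and 11.22 in Wistar S (−0.31, SE 0.12, adjusted p = 0.534). The 5 precursor members therefore did not share a direction.

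**Figure D2:**
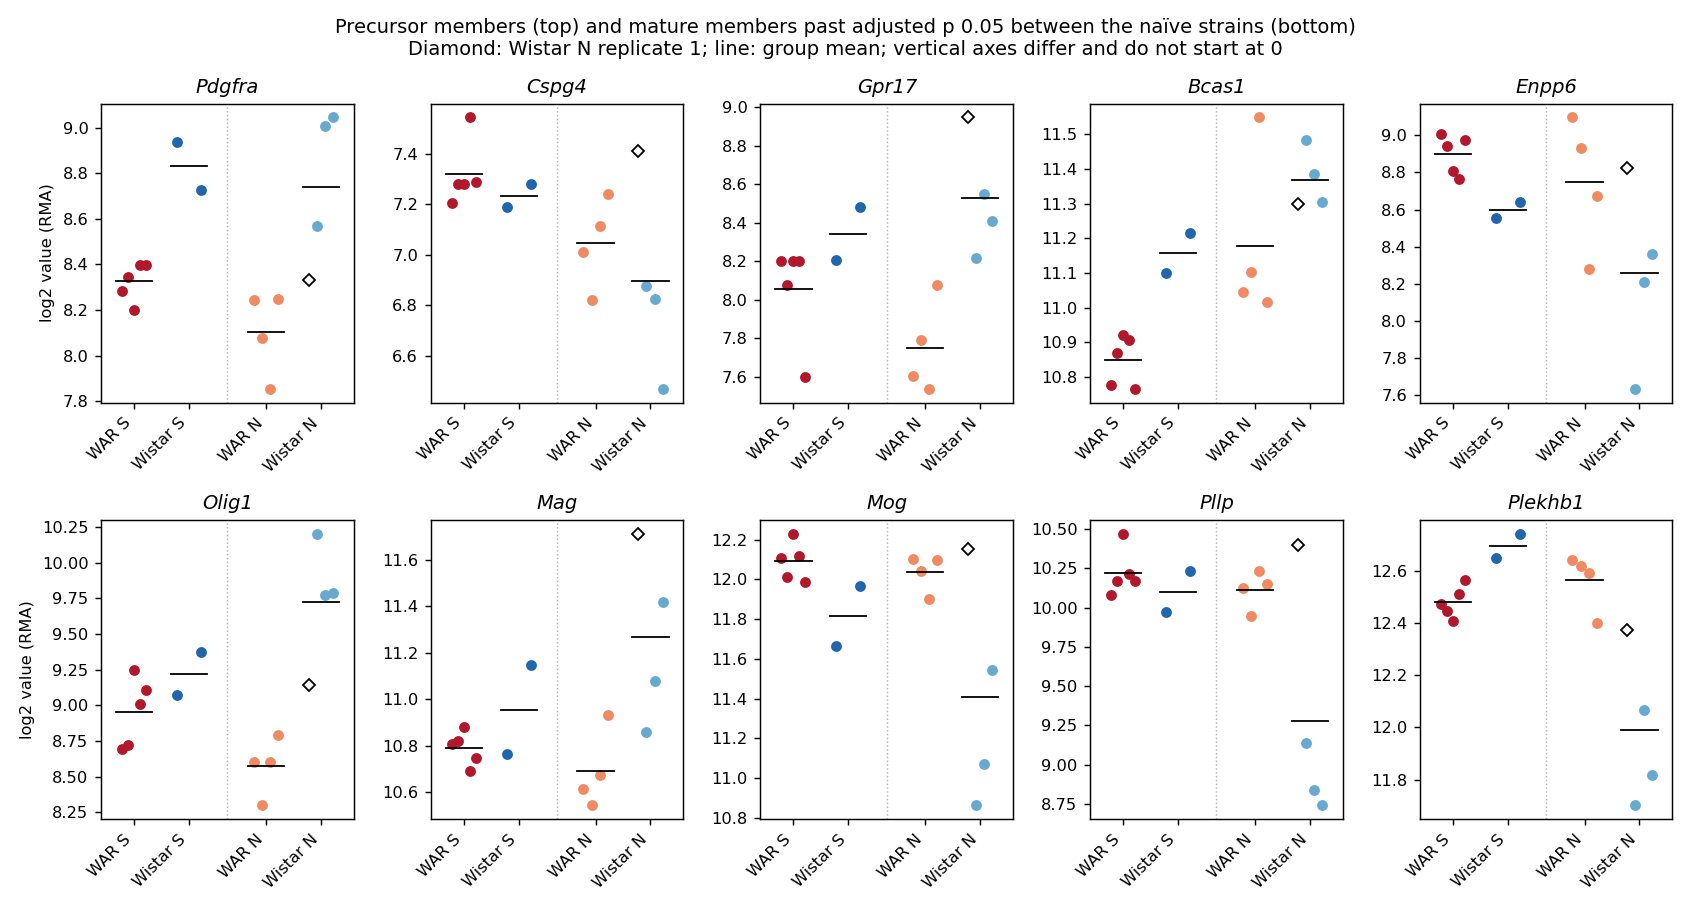
Log2 values (vertical axes, which differ and do not start at 0) by array in WAR S, Wistar S, WAR N and Wistar N for the precursor members and for the mature members that passed in naïve rats, with the group mean as a line. Wistar N replicate 1, drawn as a diamond, was the highest Wistar N array and the one nearest to WAR N in *Mog*, *Pllp* and *Plekhb1*, and the one farthest from WAR N in *Gpr17* and *Mag*.

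Of the 14 members that encode proteins of the myelin sheath and its membrane, 3 were higher and 1 was lower in WAR N (28.6%, against 20.9% of all genes), and none passed in stimulated rats. Without Wistar N replicate 1, 6 were higher and 2 lower (57.1%, against 41.1%). *Plekhb1*, which encodes a membrane-associated protein with a pleckstrin homology domain, had 12.64, 12.62, 12.59 and 12.40 in WAR N (probe set 10723992), against 12.37, 11.70, 12.07 and 11.82 in Wistar N. The groups did not overlap, although replicate 1 of Wistar N lay only just below the lowest WAR N array. The log2 fold change was 0.58 (SE 0.12, limma adjusted p = 0.00437), and 0.70 (adjusted p = 2.12e-05) without that array. In stimulated rats the order was the opposite, with 12.47, 12.45, 12.41, 12.51 and 12.56 in WAR S, against 12.65 and 12.74 in Wistar S. The log2 fold change there was −0.21 (SE 0.14, adjusted p = 1), and the groups again did not overlap. Opposite orders without overlap occurred in 0.496% of all genes (72 of 14506). With all arrays the difference between the strain effects was −0.79 on the log2 scale (SE 0.18) and did not pass (limma adjusted p = 0.0992). No member passed that test with all arrays, against 0.103% of all genes (0.062% higher and 0.0414% lower). Without Wistar N replicate 1 the difference for *Plekhb1* was −0.92. It passed in some of the alternative runs, with limma adjusted p from 0.000263 to 0.485 over all runs, and so did other members. Those counts are given further on with the share of all genes.

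*Mog*, which encodes a glycoprotein of the outermost myelin layer, had 12.10, 12.04, 11.90 and 12.10 in WAR N (probe set 10827673), against 12.15, 10.86, 11.07 and 11.54 in Wistar N. Replicate 1 of Wistar N was above every WAR N array, and the other 3 were below them all. The log2 fold change was 0.63 (SE 0.20, limma adjusted p = 0.0402), and 0.88 (adjusted p = 0.000106) without replicate 1. In stimulated rats *Mog* had 11.99 to 12.23 in WAR S, against 11.67 and 11.97 in Wistar S, and the log2 fold change was 0.27 (SE 0.24, adjusted p = 1).

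*Pllp*, which encodes the myelin proteolipid plasmolipin, had 10.13, 9.95, 10.23 and 10.15 in WAR N (probe set 10805996), against 10.40, 9.14, 8.84 and 8.74 in Wistar N. Again replicate 1 of Wistar N was the highest of the 8 arrays. The log2 fold change was 0.83 (SE 0.27, limma adjusted p = 0.0389), and 1.21 (adjusted p = 1.8e-06) without replicate 1. In stimulated rats it was 0.12 (95% interval −0.55 to 0.79). The SD was 0.15 in WAR S and 0.19 in Wistar S, against 0.77 in Wistar N, whose spread also enters that interval. The calls of *Mog* and *Pllp* in naïve rats were lost without any 1 of 12 of the 15 arrays, with adjusted p up to 0.125, and held without WAR S replicate 3, WAR S replicate 4 or Wistar N replicate 1.

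*Mag*, which encodes the myelin-associated glycoprotein of the innermost layer facing the axon, was the sheath member that was lower in WAR N. Its values (probe set 10720813) were 10.61, 10.54, 10.67 and 10.93 in WAR N, against 11.71, 10.86, 11.08 and 11.42 in Wistar N. The highest WAR N array overlapped the lowest Wistar N array, and replicate 1 of Wistar N was the highest. The log2 fold change was −0.58 (SE 0.15, limma adjusted p = 0.0171), and −0.43 (adjusted p = 0.0152) without replicate 1. In stimulated rats it was −0.17 (95% interval −0.56 to 0.22), with 10.69 to 10.88 in WAR S and 10.76 and 11.15 in Wistar S.

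The log2 fold changes of *Mbp*, *Mobp* and *Cnp*, genes of abundant myelin proteins, lay between −0.15 and 0.15. *Mbp*, which encodes myelin basic protein, had log2 fold changes of 0.07 in naïve rats (95% interval −0.10 to 0.24) and −0.04 in stimulated rats (−0.23 to 0.16). A second *Mbp* probe set gave 0.18 and 0.12. *Mobp*, encoding another basic protein of compact myelin, had 0.11 in naïve (−0.03 to 0.24) and −0.04 in stimulated rats (−0.20 to 0.11). *Cnp*, which encodes a phosphodiesterase that keeps cytoplasmic channels in myelin open, had 0.15 (−0.18 to 0.48) and −0.15 (−0.53 to 0.24). None of the 3 passed in either comparison, with or without Wistar N replicate 1.

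Replicate 1 of Wistar N decided what *Cldn11*, the claudin of the tight junctions within myelin, showed. That array read 12.11 and the other Wistar N arrays 10.39, 10.46 and 10.37, against 11.43, 11.32, 11.43 and 11.44 in WAR N. The WAR N values thus lay between them, and the log2 fold change was 0.57 (SE 0.28, limma adjusted p = 0.173) with that array and 1.00 (adjusted p = 1.51e-07) without it. *Opalin*, encoding a myelin glycoprotein, and *Mal*, encoding a proteolipid of myelin rafts, likewise passed as higher in WAR N without it (0.44 and 0.36) but not with all arrays, and *Tspan2*, a tetraspanin, as lower (−0.52). *Ermn*, *Gjb1* and *Tmem125* passed with neither set of arrays, and their naïve log2 fold changes were −0.10, −0.24 and −0.30.

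**Figure D3:**
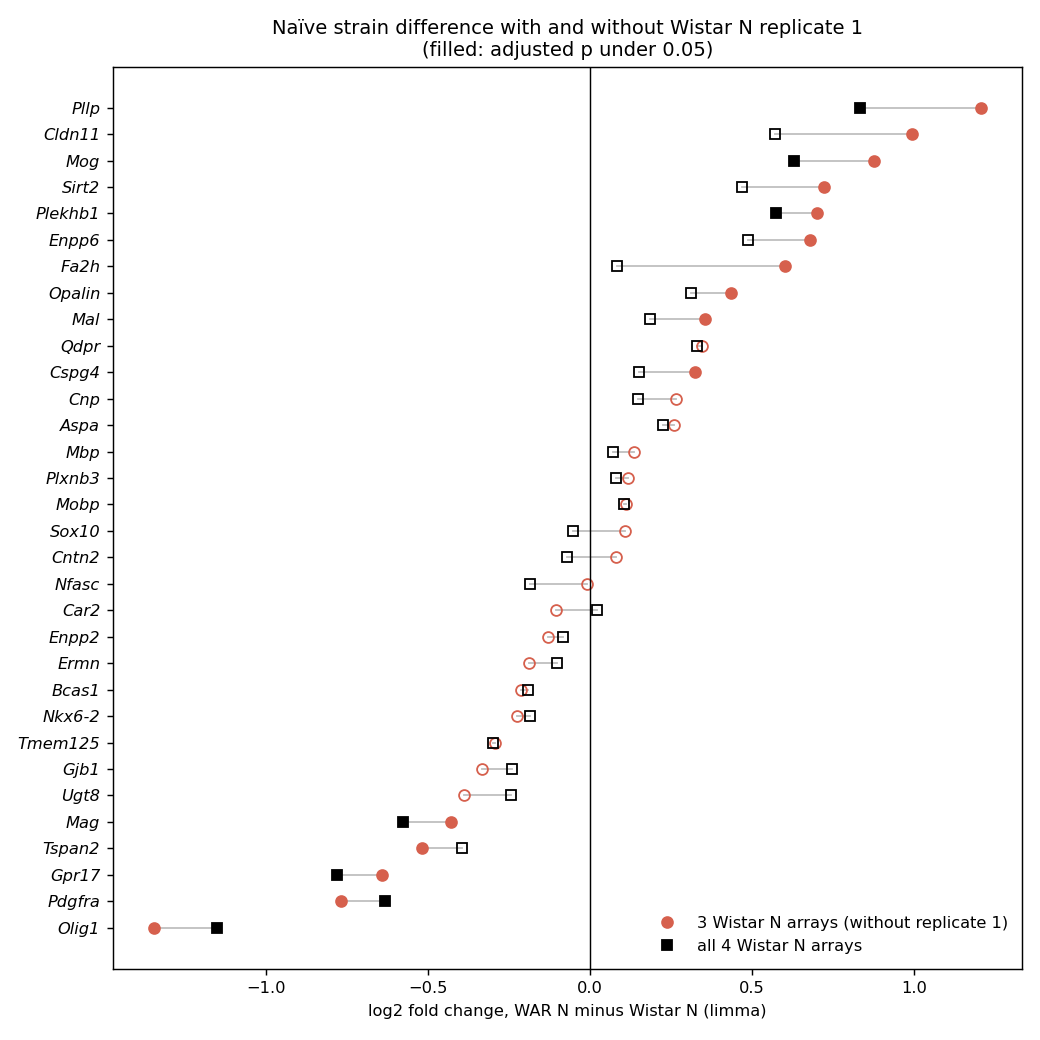
Log2 fold change between naïve strains (horizontal axis, WAR N minus Wistar N, limma) of each member (vertical axis), with squares for all 4 Wistar N arrays and circles without replicate 1, filled where adjusted p was under 0.05. The number of filled points was 7 with all arrays and 15 without replicate 1, and *Pdgfra*, *Gpr17*, *Olig1*, *Mag*, *Mog*, *Pllp* and *Plekhb1* were filled in both.

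Among the transcription factors, *Olig1*, which in mice promotes oligodendrocyte maturation and myelin repair, was lower in WAR N. Its log2 values (probe set 10750191) were 8.61, 8.30, 8.61 and 8.79 in WAR N, against 9.15, 10.20, 9.77 and 9.79 in Wistar N. Every WAR N array was below every Wistar N array, and replicate 1 was again the Wistar N array closest to WAR N. The log2 fold change was −1.15 (SE 0.19, limma adjusted p = 0.00175), the largest in size among the members, and −1.35 (adjusted p = 1.17e-05) without replicate 1. In stimulated rats *Olig1* had 8.69, 8.72, 9.25, 9.01 and 9.11 in WAR S, against 9.07 and 9.37 in Wistar S. Those groups overlapped, and the log2 fold change was −0.27 (95% interval −0.75 to 0.22). The difference between the strain effects, 0.89 (SE 0.30), did not pass with all arrays (limma adjusted p = 0.192). Without Wistar N replicate 1 it was 1.08. It passed in some of the alternative runs, with limma adjusted p from 0.00445 to 0.743 over all runs. *Sox10*, a factor of the whole lineage, had −0.05 in naïve (95% interval −0.35 to 0.25) and −0.14 in stimulated rats (−0.49 to 0.21). *Nkx6-2*, a homeobox factor of myelinating cells, had −0.19 (−0.41 to 0.04) and 0.09 (−0.17 to 0.35).

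None of the 7 lipid and metabolic enzymes passed in either comparison with all arrays. *Ugt8*, whose enzyme makes the myelin lipid galactosylceramide, had log2 fold changes of −0.24 in naïve (95% interval −0.62 to 0.13) and 0.08 in stimulated rats (−0.37 to 0.52). *Fa2h*, whose enzyme hydroxylates the fatty acids of that lipid, read 10.63 in Wistar N replicate 1 and 8.69, 8.58 and 8.39 in the other Wistar N arrays, against 9.23, 9.03, 9.00 and 9.36 in WAR N. Its naïve log2 fold change was 0.08 (SE 0.37) with replicate 1 and 0.60 (limma adjusted p = 0.00534) without it. *Sirt2*, a deacetylase abundant in myelin, behaved in the same way, with 11.70 in replicate 1 and 10.56, 10.81 and 10.69 in the other Wistar N arrays, against 11.79, 11.26, 11.09 and 11.50 in WAR N (0.47, adjusted p = 0.118, and 0.72, adjusted p = 0.00052, without replicate 1).

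*Qdpr*, which encodes a pteridine reductase, had 0.33 in naïve (SE 0.14, limma adjusted p = 0.106) and 0.30 in stimulated rats (SE 0.16, adjusted p = 0.897), where the WAR S values of 11.74 to 12.40 lay above the 11.66 and 11.73 of Wistar S. *Aspa* (aspartoacylase), *Enpp2* (autotaxin) and *Car2* (carbonic anhydrase) had naïve log2 fold changes of 0.23, −0.08 and 0.02 and stimulated ones of −0.04, 0.21 and −0.15. Neither did *Cntn2* and *Nfasc*, adhesion molecules of the axon and myelin contact that neurons also express, nor the semaphorin receptor gene *Plxnb3*, pass in either comparison, and their log2 fold changes ran between −0.18 and 0.08 in naïve rats and between −0.06 and 0.01 in stimulated rats.

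In the mean of both strain effects *Pdgfra* (−0.57, limma adjusted p = 0.00661), *Gpr17* (−0.53, adjusted p = 0.0228) and *Olig1* (−0.71, adjusted p = 0.00956) passed as lower and no member passed as higher. That was 3 of 32 members (9.38%), against 9.99% of all genes in either direction, 5.87% higher and 4.12% lower. Without Wistar N replicate 1 the mean effects were −0.64 (*Pdgfra*), −0.46 (*Gpr17*) and −0.81 (*Olig1*). That no member passed as higher did not hold in every alternative run. Those counts are given further on with the share of all genes. Both Wistar S arrays mattered here, since without Wistar S replicate 1 *Pdgfra* (adjusted p = 0.0552) and *Gpr17* (0.0605) did not pass, and without Wistar S replicate 2 *Gpr17* (0.158) and *Olig1* (0.0889) did not.

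The precursor members had lower medians of the log2 fold change than the mature ones in both comparisons. The precursor median was −0.29 and the mature median −0.04 in stimulated rats, and they were −0.19 and 0.07 in naïve rats. The mean log2 value of the 5 precursor members was 8.69 ± 0.06 in WAR S (SD, n = 5) and 8.83 ± 0.05 in Wistar S (n = 2), and 8.57 ± 0.08 in WAR N and 8.76 ± 0.17 in Wistar N (n = 4 each). For the 27 mature members it was 10.45 ± 0.06 in WAR S and 10.46 ± 0.18 in Wistar S, and 10.38 ± 0.06 in WAR N and 10.34 ± 0.18 in Wistar N. The precursor mean minus the mature mean was −1.80, −1.76, −1.90 and −1.79 in WAR N, against −1.63, −1.66, −1.44 and −1.60 in Wistar N, without overlap and with replicate 1 of Wistar N inside the range of its group. In stimulated rats it was −1.69, −1.69, −1.86, −1.69 and −1.86 in WAR S, against −1.54 and −1.72 in Wistar S, which overlapped. These means are a description with no test, and they hide a split among the precursor members, since in naïve rats *Pdgfra*, *Gpr17* and *Bcas1* had negative and *Cspg4* and *Enpp6* positive log2 fold changes.

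**Figure D4:**
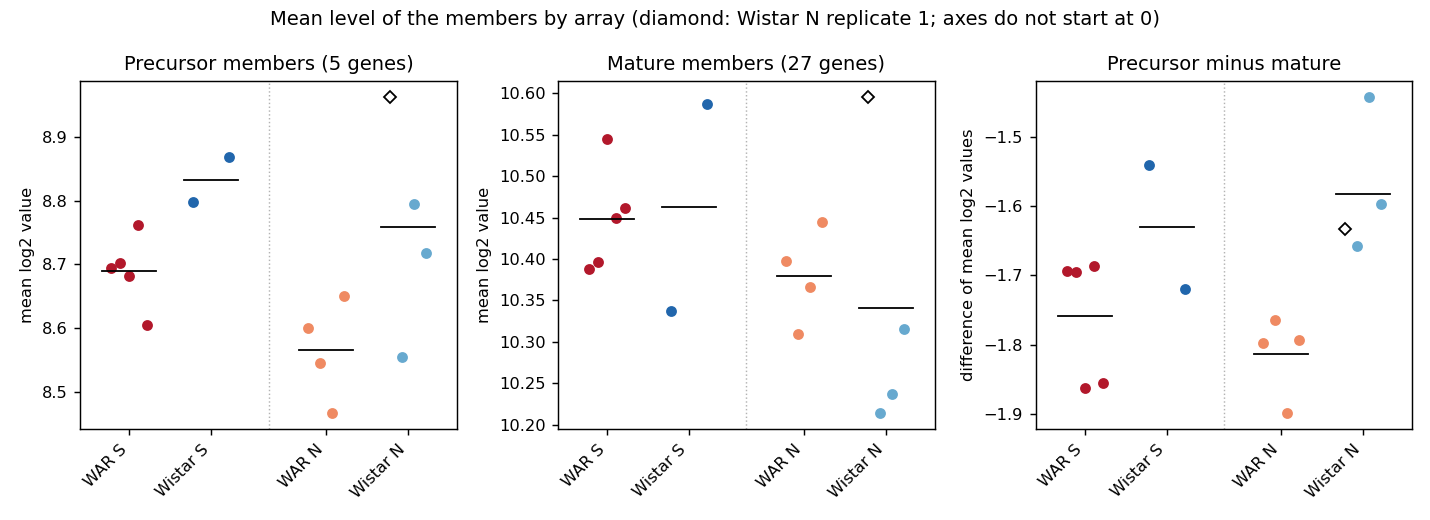
Mean log2 value of the precursor members, of the mature members and their difference (vertical axes, which do not start at 0) by array in WAR S, Wistar S, WAR N and Wistar N, with group means as lines. The mature mean of Wistar N replicate 1 (diamond, 10.60) was above every WAR N array (10.31 to 10.44), and the other 3 Wistar N arrays lay between 10.21 and 10.31, while the difference separated WAR N from Wistar N with every array.

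Other genes of the pathway, taken from lists of markers, also moved in both directions. The counts that follow stand against 20.9% of all genes passing between the naïve strains with all arrays and 41.1% without Wistar N replicate 1, and each gene named with a value in naïve rats passed in both. Of 26 other mature oligodendrocyte genes 6 were higher and 5 lower in WAR N (42.3%, median 0.03), and 11 were higher and 5 lower without replicate 1 (61.5%). Among them were *Ninj2* (1.58, SE 0.39, limma adjusted p = 0.0124), *Omg*, the oligodendrocyte-myelin glycoprotein gene (0.89), *Ptgds*, the prostaglandin D synthase gene (0.77), and *Gsn*, the gelsolin gene (−0.99, SE 0.13, adjusted p = 0.000571). Of 14 other precursor genes *Vcan* was higher (0.43) and *Rras2* (−0.98) and *Fyn* (−0.48) were lower (21.4%, median 0.01), and without replicate 1 4 were higher and 2 lower (42.9%).

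Of 8 genes of myelin lipid synthesis and turnover 4 were lower in WAR N and none was higher (50%, median −0.43), namely *Degs1*, whose enzyme makes ceramide (−1.30), *Psap* (−0.60), *Abca2* (−0.59) and *Arsa* (−0.34). That one-sided count did not hold without replicate 1, when all 8 passed, 5 of them lower and 3 higher (*Cers2*, *Elovl6* and *Gltp*). The mean log2 value of the 8 was 9.62 to 9.75 in WAR N, against 9.82 to 10.15 in Wistar N, without overlap and with replicate 1 included. In stimulated rats the means of the strains overlapped. Of 10 genes of the node and paranode, where myelin meets the bare axon, *Cntnap1* (−0.61), *Scn8a* (−0.53) and *Sptbn4* (−0.36) were lower and none was higher (30%), and without replicate 1 3 were lower and 2, *Kcna1* and *Kcna2*, higher (50%). No gene of these 4 lists passed in stimulated rats.

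Markers of other cell types differed between the strains as well, and their part in the results on oligodendrocyte genes was not tested. Some of them moved with Wistar N replicate 1, on which several of the naïve calls depended. The mean log2 value of 12 endothelial genes was 8.47 in that array and 7.61 to 7.64 in the other Wistar N arrays, against 8.25 to 8.76 in WAR N. For 9 genes of pericytes and smooth muscle, which also express *Cspg4*, it was 8.10 in that array and 7.30 to 7.39 in the others, against 7.71 to 8.11 in WAR N. For 7 meningeal fibroblast genes, a cell type that also expresses *Pdgfra*, it was 7.33 in that array and 6.72 to 6.86 in the others, against 6.96 to 7.19 in WAR N. *Cspg4* itself was highest of Wistar N in that array (7.41, others 6.47 to 6.88), while *Pdgfra* was lowest there (8.33, others 8.57 to 9.05). In all 3 lists that array lay outside the range of the other Wistar N arrays, and for the endothelial and pericyte genes it lay within the range of WAR N. This was not particular to these lists. Its mean was also above that Wistar N range for Schwann cell, choroid plexus, microglial and neuronal genes and below it for ependymal genes. For astrocyte and red blood cell genes it was within the range. Among all single genes the array was above that range in 42.9% and below it in 29%.

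Of the endothelial genes 6 were higher and none lower in WAR N (50%), and 9 were higher without replicate 1 (75%). In WAR S 3 were higher (25%, against 0.414% of all genes), with mean log2 values of 8.31 to 8.78 in WAR S, against 7.73 in both Wistar S arrays. Of the pericyte and smooth muscle genes 1 (*Rgs5*) was higher in WAR N (11.1%), and 6 were without replicate 1 (66.7%). Of the meningeal genes *Dcn* was higher and *Col1a2* lower (28.6%), and without replicate 1 2 were higher and 1 lower (42.9%).

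In the microglial list and the astrocyte list the mean levels of WAR N and Wistar N did not overlap, with replicate 1 included. Of 13 microglial genes 5 were higher in WAR N (38.5%), with mean log2 values of 8.21 to 8.29 in WAR N, against 7.79 to 7.88 in Wistar N. Without replicate 1 5 were higher and 2 lower (53.8%), and in WAR S 1, *P2ry12*, was higher (7.69%, against 0.414% of all genes). Of 14 astrocyte genes 5 were lower and none higher in WAR N (35.7%), with 10.92 to 11.13 in WAR N, against 11.27 to 11.41 in Wistar N, and without replicate 1 6 were lower and 2, *Slc1a2* and *Ndrg2*, higher (57.1%). No astrocyte gene passed in stimulated rats, where the means were 11.17 to 11.34 in WAR S, against 11.57 and 11.59 in Wistar S. Of 19 neuronal genes 7 were lower and 1 higher (42.1%), with 10.69 to 11.01 in WAR N, against 10.90 to 11.25 in Wistar N, and without replicate 1 7 were lower and 4 higher (57.9%).

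Of 7 genes of Schwann cells, which make peripheral myelin and share several myelin proteins, 1 (*Pmp2*) was higher in WAR N (14.3%), and 2 were without replicate 1 (28.6%). Of 7 choroid plexus genes none passed with all arrays and 1 was higher without replicate 1, and of 3 ependymal genes none passed in either case. *Hbb* of red blood cells was lower in WAR N, with and without replicate 1, and in WAR S.

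The labels fall into 2 sets by how they number the arrays, and no source says what a set stands for. Within the first set, which holds 2 arrays of each naïve group and Wistar N replicate 1, *Mag* passed as lower (−0.99, limma adjusted p = 0.0435) and was the only member to pass in naïve rats, while *Pdgfra* (−0.53), *Gpr17* (−0.98), *Olig1* (−1.01), *Mog* (0.23), *Pllp* (0.47) and *Plekhb1* (0.54) kept their direction. Within the second set, also with 2 arrays of each naïve group, they were −0.74, −0.58, −1.29, 1.03, 1.20 and 0.61, of which *Gpr17* did not pass (adjusted p = 0.0673), and *Mag* was −0.17 and did not pass. The second set holds no Wistar S array, and within the first *Pdgfra* was −0.49 between the stimulated strains.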

How the data were processed

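Expression was measured on Affymetrix Rat Gene 1.0 ST arrays of IC RNA (RIN above 8 per the labels). The deposited log2 values are the authors' RMA output (background correction, quantile normalization between arrays, 1 summary value per probe set), with no version stated per the labels. Of 29214 probe sets, 15310 carried 1 gene symbol in the platform annotation, 323 several and 13581 none, and the 527 genes with more than 1 were read from the brightest over all arrays, which left 14506 genes, 14480 of them matched to GRCr8 by gene ID. The array titles gave the group and replicate of each array, and no array was left out.

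Strains were compared by lmFit and eBayes of limma 3.58.1 (R 4.3.3), in a model with a mean for each of the 4 groups and a common spread. P-values were adjusted over all 14506 genes by Benjamini-Hochberg, with 0.05 as the threshold. The p-values measure only the spread between these arrays. Single members were also tested with an exact two-sided permutation test, which cannot go below 0.0476 with 5 against 2 arrays or 0.0286 with 4 against 4. Of the members that passed by limma in naïve rats, *Mog* and *Pllp* had an exact permutation p of 0.143 and *Mag* of 0.0571. *Pdgfra*, *Gpr17*, *Olig1* and *Plekhb1* had the smallest possible, 0.0286. The limma step was also run on simulated data, in which each gene had the same spread in all groups. Those data held no array like Wistar N replicate 1 and no ties. That run therefore cannot show how the test handles these features. The study's SAM test was not run. Its thresholds, a fold of 2 and an unadjusted p of 0.05, were applied to the limma values as an alternative. Members and lists were chosen with earlier results of these data known. Named were the members past the threshold, the precursor members whatever their p, and from each other list up to 4 genes past the threshold with the greatest change. The label-set and replicate blocks, single label sets, the compared groups alone, dim genes left out, all probe sets averaged, trended and robust eBayes, array weights, cyclic loess, median centring and each array left out were the alternatives, and those on the mean strain effect were added after seeing the data. After the group mean of each gene was subtracted, same-numbered arrays of different groups correlated between −0.31 and 0.63, and 3 of 18 pairs exceeded 0.1. Differently numbered arrays correlated between −0.48 and 0.59, and 19 of 64 pairs exceeded 0.1. The number of arrays limits the precision.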

Additional observations from a re-analysis of the deposited data

Results flagged for a closer look

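In 9 of 102 groups of values 1 array lay far from the rest of its group, where chance at 1 in 20 gives about 5.1. In WAR S, replicate 4 was high in *Cspg4* (log2 value 7.544, others 7.204 to 7.289) and in *Mal* (11.52, others 11.31 to 11.35), and replicate 5 was low in *Gpr17* (7.599, others 8.075 to 8.201). In WAR N, replicate 3 was high in *Bcas1* (11.55, others 11.02 to 11.1), replicate 2 was slightly low in *Cldn11* (11.32, others 11.43 to 11.44) and replicate 4 was high in *Cntn2* (9.931, others 9.327 to 9.411). In Wistar N, replicate 1 was high in *Cldn11* (12.11, others 10.37 to 10.46) and *Fa2h* (10.63, others 8.385 to 8.694), and replicate 2 was high in *Nkx6-2* (8.045, others 7.617 to 7.665).

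*Plekhb1* had every WAR S array below both Wistar S arrays and every WAR N array above all Wistar N arrays. The difference between the strain effects, −0.7894 on the log2 scale, did not pass over all genes with all arrays (limma adjusted p = 0.0992). It was −0.9169 without Wistar N replicate 1. It passed in some of the alternative runs, with limma adjusted p from 0.000263 to 0.485 over all runs.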

How the results depend on the processing

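The number of members past the threshold between the naïve strains depended on the arrays and the model, and so did the share of all genes past it, given here in brackets. Against 3 higher and 4 lower with all arrays (20.9%), 15 runs that each left out 1 array gave 1 to 10 higher and 4 to 5 lower (13.7% to 41.1%). Label set 1 alone gave 0 higher and 1 lower (1.5%), label set 2 alone 10 higher (26%), the compared groups alone 0 higher and 2 lower (6.06%), array weights 6 higher (32.2%), and the study's fold and p thresholds 0 higher and 1 lower, which was *Olig1* (1.76%). The replicate block, with numbers that did not pair the arrays, gave 1 higher (17.2%), and *Mog* (adjusted p = 0.0691), *Pllp* (0.0744) and, in the mean of both strain effects, *Gpr17* (0.056) no longer passed. With group means subtracted, 3 of 18 same-numbered pairs correlated above 0.1, beside 19 of 64 differently numbered pairs. *Plekhb1*, *Pdgfra* and *Mag* also missed the threshold in the compared groups alone (adjusted p = 0.0512, 0.0622 and 0.0865), where the spread comes from those arrays only. *Enpp6* passed between the naïve strains with the label-set block (0.0305) and array weights (0.0119). The naïve log2 fold change of *Cspg4* reversed to −0.024 in label set 1. The cause of these changes was not tested.

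Between the stimulated strains 0 members passed (0.414%), but the compared groups alone gave 1 lower (*Pdgfra*, adjusted p = 0.0353; 1.89%) and array weights 3 lower (*Pdgfra*, *Bcas1* and *Plekhb1*; 9.88%). The median log2 fold change there ran from −0.14 to 0.068 with 1 array left out, and the precursor median minus the mature median from −0.28 to −0.14. In naïve rats that difference was −0.26, from −0.38 to −0.15 with 1 array left out and −0.15 in label set 1.

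For the difference between the strain effects, array weights gave 1 higher and 5 lower members (23.1%), leaving out 1 array 0 to 1 higher and 0 to 5 lower (0% to 20.4%), and the median was 0.039 in label set 1. For the mean strain effect, against 0 higher and 3 lower (9.99%), the label-set block gave 2 higher (11.6%), label set 1 gave 1 lower (1.88%), array weights 7 higher and 6 lower (31.3%), the study's thresholds 0 lower (0.283%), and leaving out 1 array 0 to 8 higher and 1 to 6 lower (2.34% to 29.4%). With dim genes left out, averaged probe sets, trended and robust eBayes, cyclic loess or median centring, the naïve counts were 3 higher and 4 lower.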

Other observations

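Replicate 1 of Wistar N lay above the range of the other Wistar N arrays in 18 of the 32 members (56.2%), beside 42.9% of all genes, and below it in 10 (31.2%), beside 29% of all genes. It differed from the mean of the others by at least 1 on the log2 scale in *Fa2h*, *Cldn11*, *Pllp* and *Sirt2*, which was 12.5% of the members, beside 7.42% of all genes. For these genes it read 10.63, 12.11, 10.40 and 11.70, against means of 8.55, 10.41, 8.91 and 10.69 in the other Wistar N arrays. What set this array apart was not tested.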
